A study of Mus musculus with 12 samples.

Results

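The genes described here, Krt79, Defb6, Cst6, Gata6, Plet1, Lrig1 and Lgr6, mark the upper part of the hair follicle, the infundibulum and the isthmus below it. They were chosen by symbol, and every probe set (the group of probes that reads a transcript) paired with 1 of these genes and no other was taken. This gave 11 probe sets for the 7 genes, of 28898 probe sets paired with a single gene, which read 17097 genes. Krt79, Defb6, Cst6 and Lgr6 had 1 probe set each, Gata6 and Lrig1 had 2, and Plet1 had 3.

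The samples were basal cells from tail skin of CD1 mice, an outbred strain, wounded by a 3 mm biopsy and taken at D4 or D7. The leading edge (LE), from which cells move over the wound, was enriched with a 4 mm punch and the proliferative hub behind it with a 6 mm punch. Tail skin far from the wound gave the control. Each of the 6 groups of a region and a day had 2 arrays, and each array came from 300 sorted cells of a pool of 5 mice. Cells were sorted for high α6-integrin, an adhesion receptor of basal cells, and for absence of CD34, a surface protein of the bulge. The sort was thus meant to take basal cells of the interfollicular epidermis together with those of the infundibulum, and to leave out the bulge. Both arrays of a group are labelled as biological replicates, but no source used here states that they came from separate pools, so p values measure the spread between these arrays, which may be technical. As these are bulk samples, fewer cells of a type and less RNA per cell cannot be told apart.

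In mouse skin the infundibulum opens the follicle to the surface, and the isthmus lies between it and the bulge and carries the sebaceous gland. Lrig1, Plet1 and Lgr6 mark partly overlapping populations of the isthmus and its junction with the infundibulum. Krt79 and Gata6 mark the cells of the infundibulum and the sebaceous duct. Cells of these compartments can enter the epidermis around a wound.

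Of the 7 genes, 5 had a promoter window in the RefSeq table used here (build GRCm38.p6), all but Cst6 and Gata6. Gata6 encodes a transcription factor that binds GATA sites, so the 250 bases before each start were searched on both strands for AGATAA, then for AGATAG, for TGATAA and for TGATAG, motifs which share the core GATA and were counted together. A match was found in the windows of Krt79 and Defb6, 1 in each, and in 26.5% of all 32851 windows. The windows of Plet1, Lrig1 and Lgr6 held none of these letters. Those of Lrig1 and Lgr6 overlap the listed span of the gene. They thus precede a start inside that span, and other starts of these genes were not searched. The windows of Krt79 and Defb6 are shown because these genes varied together across the arrays. The capitals mark the match, which begins 219 bases before the start in Krt79 and 115 bases before it in Defb6.
Krt79, chr15:101940325-101940574, minus strand: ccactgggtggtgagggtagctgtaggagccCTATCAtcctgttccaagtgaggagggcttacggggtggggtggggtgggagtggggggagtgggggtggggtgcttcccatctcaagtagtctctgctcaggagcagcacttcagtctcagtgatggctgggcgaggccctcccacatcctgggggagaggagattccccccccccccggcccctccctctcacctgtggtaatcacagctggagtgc
Defb6, chr8:19225228-19225477, plus strand: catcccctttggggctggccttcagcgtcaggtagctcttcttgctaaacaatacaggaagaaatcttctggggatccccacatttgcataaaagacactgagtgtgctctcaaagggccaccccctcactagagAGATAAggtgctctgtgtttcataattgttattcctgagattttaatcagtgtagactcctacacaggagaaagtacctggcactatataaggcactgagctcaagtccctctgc

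All levels below are log2 intensities after RMA, a normalization for these arrays, and all differences are differences of log2 intensity, so 1 unit is a factor of 2. Array medians ran from 5.4 to 5.47 at D4 and from 4.25 to 4.28 at D7, so regions were compared within a day only. Arrays of the same group gave correlations from 0.987 to 0.994 over all tested probe sets, which are not independent replicates. Among 6 genes of basal keratinocytes mean levels ran from 12.15 to 12.30 at D4 and from 11.17 to 11.35 at D7, and Cd34 lay below the array median on all 12 arrays. Melanocyte genes stood apart at D4. Their mean over 5 genes was 8.39 on hub replicate 2 and 7.11 on control replicate 1, against 5.10 to 5.38 on the other 4 D4 arrays.

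Krt79, Defb6 and Cst6 had the widest gaps of the 7 genes between the arrays of a group in the hub and the control at D4. Krt79, a type II keratin of the infundibulum and the sebaceous duct, read 9.97 and 9.12 in the LE, 10.42 and 8.55 in the hub and 10.38 and 7.85 in control at D4 (replicates 1 and 2). Replicate 1 was higher in every region, and the control arrays enclosed the values of the LE. At D7 it read 8.93 and 8.89 in the LE, 9.69 and 9.35 in the hub and 9.72 and 9.15 in control, so that the LE arrays lay below all others of that day.

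Defb6, a beta-defensin, which is a small secreted antimicrobial peptide, read 9.32 and 9.38 in the LE, 10.87 and 9.05 in the hub and 10.89 and 8.04 in control at D4. The LE arrays lay close together between the pairs of the hub and the control. At D7 it read 8.17 and 8.28 in the LE, 9.15 and 9.56 in the hub and 9.54 and 8.79 in control, and again the LE arrays were the lowest.

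Cst6, cystatin M/E, which inhibits cysteine proteases in the cornifying epidermis and the follicle, read 9.12 and 8.18 in the LE, 9.46 and 7.78 in the hub and 10.08 and 6.95 in control at D4. Control held both the highest and the lowest array of that day. At D7 it read 8.14 and 7.89 in the LE, 8.49 and 7.99 in the hub and 8.90 and 7.83 in control, and all 3 groups overlapped.

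**Figure D1:**
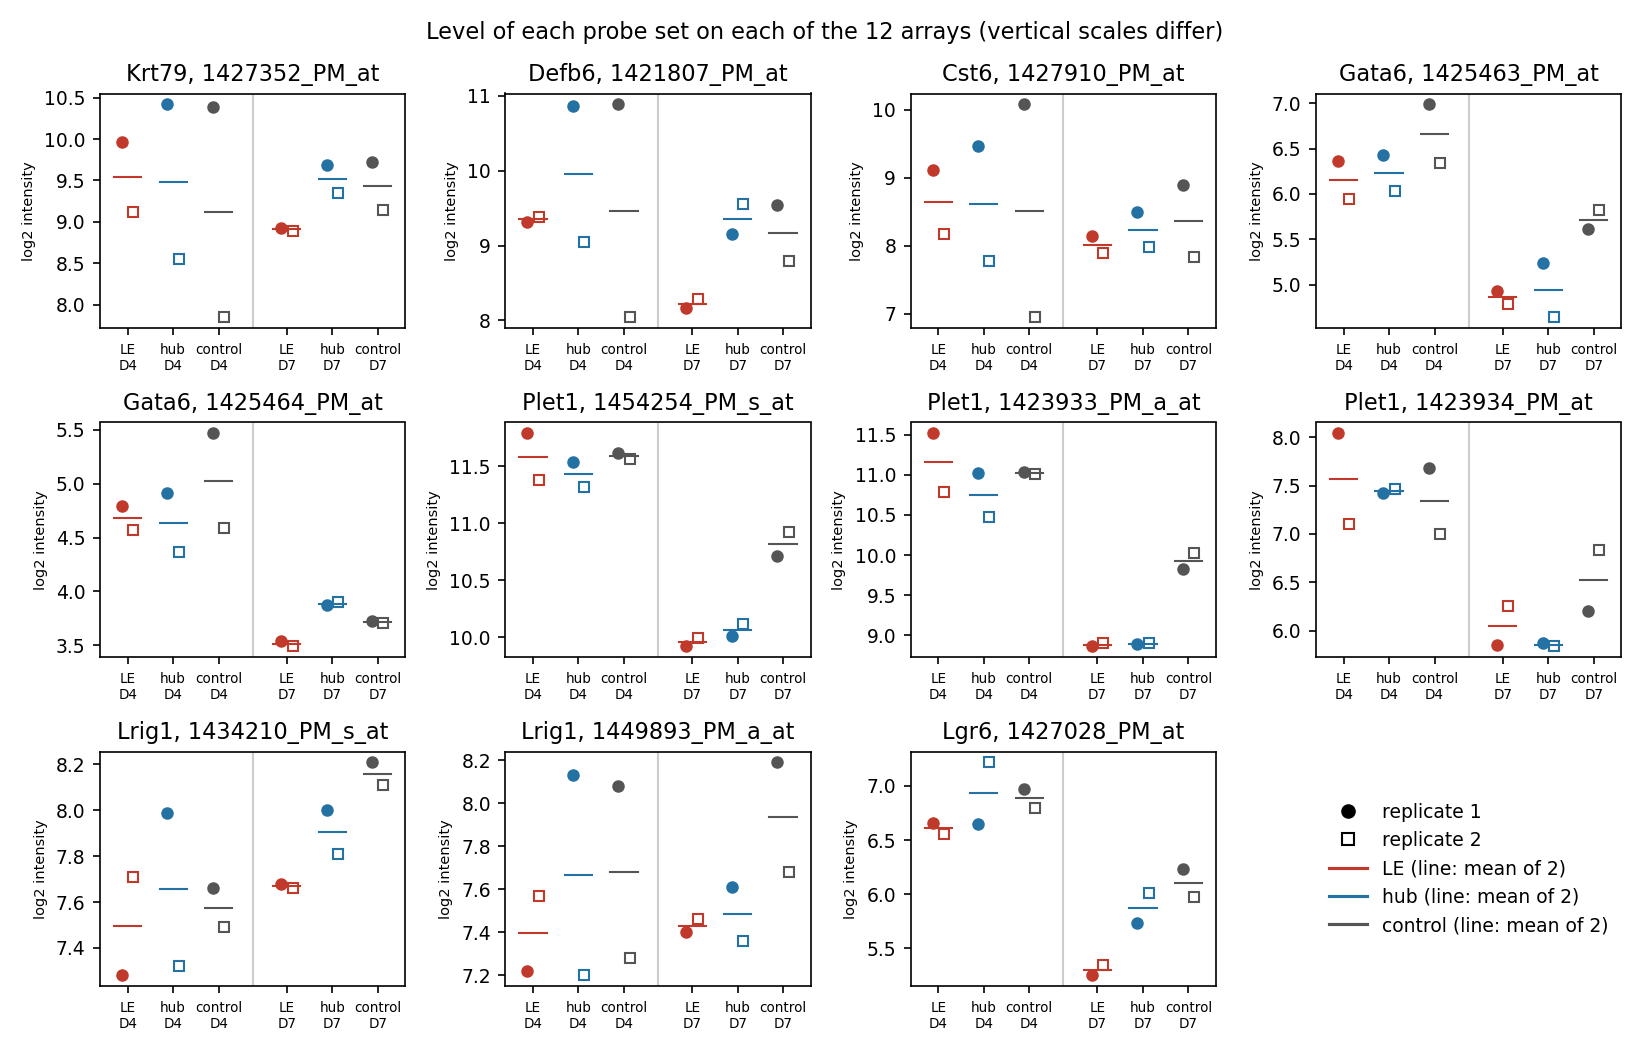
Log2 intensity (vertical axis, scale set for each panel) of the 11 probe sets on each of the 12 arrays, by region and day. Circles are replicate 1, squares replicate 2 and lines the mean of both. The D4 control arrays of Krt79, Defb6 and Cst6 lie 2.54, 2.85 and 3.13 apart, whereas the LE arrays of Plet1 and Lgr6 at D7 lie below both control arrays except for 1 probe set of Plet1.

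The gap between the D4 control arrays was 5.8-fold for Krt79, 7.2-fold for Defb6 and 8.77-fold for Cst6. Over all probe sets 38 (0.131%) differed by more than 2 between these arrays, and 3 of the 11 probe sets of the upper follicle did. The other 8 probe sets differed there by 0.02 to 0.87. In the hub at D4 the gaps were 1.88 for Krt79, 1.83 for Defb6 and 1.68 for Cst6, each at the 99.9th percentile of all probe sets, and in the LE they were 0.85, -0.07 and 0.94. At D7 the largest gap of the 3 genes was 1.07, for Cst6 in control.

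Other lists of cell type markers did not all move with this gap. The mean of 9 sebaceous gland genes was higher on replicate 1 in each D4 region, by less than Krt79. It was 7.09 and 6.75 in control, 6.94 and 6.77 in the hub and 7.32 and 7.18 in the LE (replicates 1 and 2). Of these genes Far2 read 8.61 and 6.21 in control, but 5.73 and 6.55 in the hub. On the D4 control arrays the mean of 5 melanocyte genes was 7.11 and 5.37 and that of 4 endothelial genes 6.57 and 5.22, higher on the array where Krt79, Defb6 and Cst6 were higher. In the hub at D4 the melanocyte genes ran the other way, at 5.38 on replicate 1 and 8.39 on replicate 2. The endothelial genes were also higher on replicate 2 in the hub (5.64 and 6.08) and in the LE (5.94 and 6.58) at D4. The mean of 7 suprabasal keratinocyte genes stayed between 9.51 and 9.82 on all D4 arrays. Single genes varied more, such as Grhl3 at 9.81 and 8.17 in the LE. The part of these cells in the gaps was not tested.

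**Figure D2:**
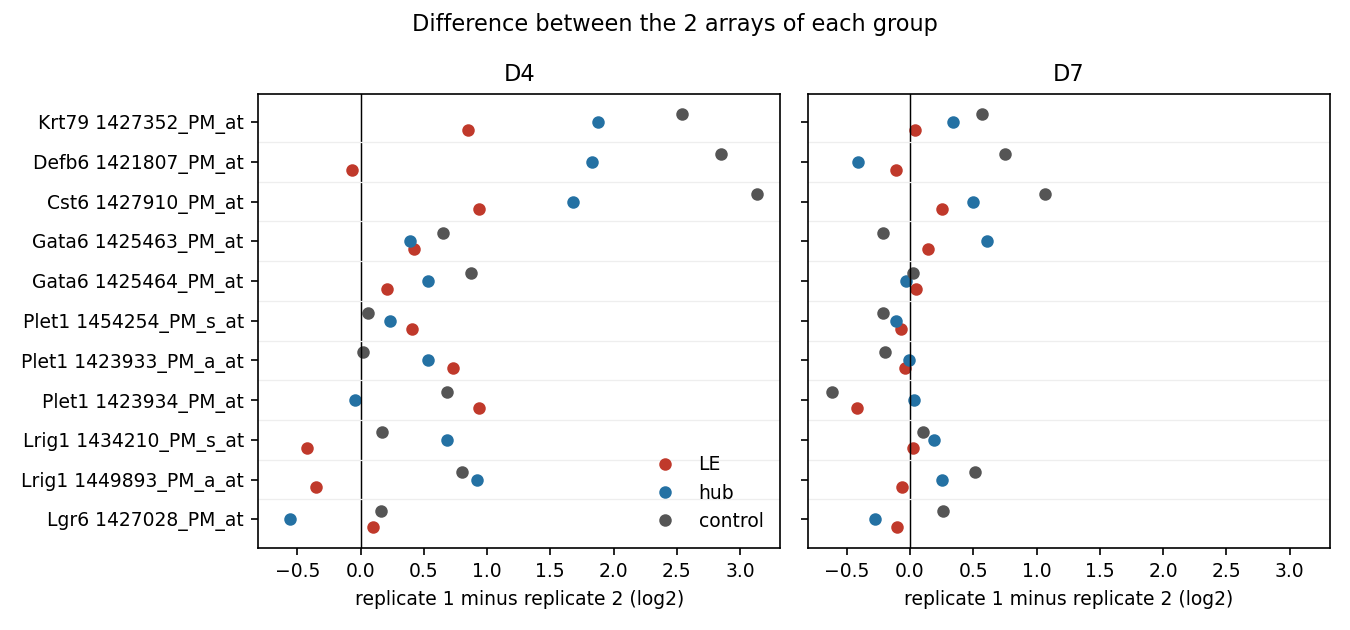
Replicate 1 minus replicate 2 (horizontal axis, log2) for each probe set in the LE, the hub and control, at D4 (left) and D7 (right). The D4 points of Krt79, Defb6 and Cst6 reach 2.54, 2.85 and 3.13 in control, and at D7 no point of any gene exceeds 1.07.

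Krt79, Defb6 and Cst6 also varied together from array to array. With the mean of the day removed, Krt79 and Cst6 correlated with r = 0.96 over the 12 arrays, Krt79 and Defb6 with 0.894, and Defb6 and Cst6 with 0.849. Over the 6 arrays of D7 alone these values were 0.801, 0.856 and 0.522. The other 18 pairs of the 7 genes, each read by its brightest probe set, gave r from 0.05 to 0.775, the highest for Gata6 with Plet1. At D7 alone these 18 pairs ran from 0.154 to 0.903, and Defb6 with Lgr6 (0.903), Gata6 with Lrig1 (0.875) and Gata6 with Plet1 (0.869) exceeded all 3 pairs of Krt79, Defb6 and Cst6. These values describe arrays that share a method of amplification and scaling, and at D4 those of Krt79, Defb6 and Cst6 rest largely on the replicate gaps above.

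Genes most like each of the 7 in this sense were sought among 2999 genes that spanned more than 1 on the log2 scale. The list for Krt79 was headed by Cst6, followed by Ovol2, a transcription factor of epithelia (r = 0.895), Defb6, Mier1 (0.86) and Nppb, a natriuretic peptide (0.847). Over the D7 arrays alone Ovol2 gave r = -0.026 with Krt79, Mier1 0.406 and Nppb -0.327. Gata6 was most like Marveld3, a tight junction protein (0.96), and the serpin Serpinb2 (0.89), and Plet1 most like Ifi202b (0.963), Pdzk1ip1 (0.902) and Serpinb2 (0.891). Lgr6 was most like Atat1, a tubulin acetyltransferase (0.926), and Bnc2 (0.919). For Lrig1 no gene exceeded 0.795 (Lacc1).

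**Figure D3:**
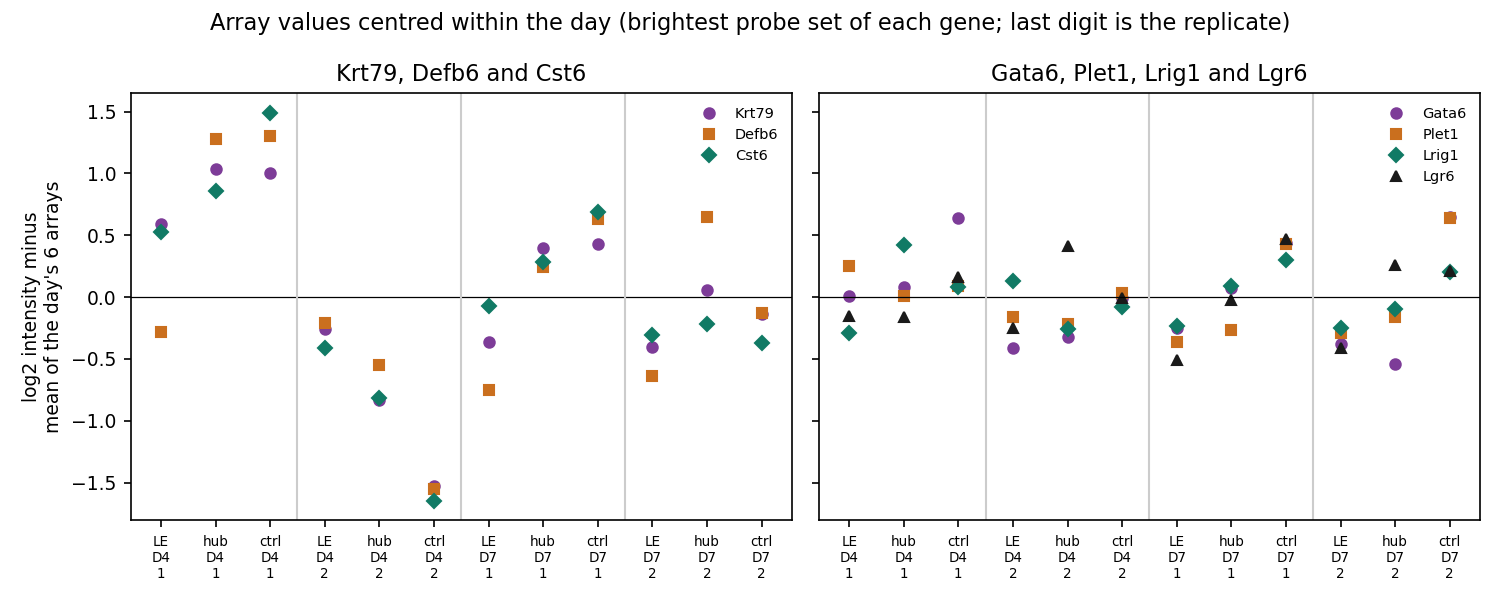
Log2 intensity minus the mean of the 6 arrays of the day (vertical axis) on each of the 12 arrays, for the brightest probe set of each gene. On the left Krt79, Defb6 and Cst6 lie close to each other on most arrays, with pairwise r of 0.849 to 0.96, and on the right Gata6, Plet1, Lrig1 and Lgr6 spread less between the D4 arrays.

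At D7 Plet1 and Lgr6 were lower in the LE than in control. Plet1 is a surface protein of the isthmus that carries the epitope of the antibody MTS24. Its brightest probe set (1454254_PM_s_at) read 11.79 and 11.38 in the LE, 11.54 and 11.32 in the hub and 11.62 and 11.56 in control at D4, with overlap of the LE and control. At D7 it read 9.92 and 9.99 in the LE, 10.01 and 10.12 in the hub and 10.71 and 10.92 in control, and both control arrays lay above all 4 wound arrays.

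A further probe set of Plet1 (1423933_PM_a_at) showed the same order, with 8.86 and 8.90 in the LE, 8.89 and 8.90 in the hub and 9.82 and 10.02 in control at D7. At D4 it read 11.52 and 10.79 in the LE, 11.02 and 10.48 in the hub and 11.03 and 11.01 in control. The control arrays then fell between those of the LE. The dimmest probe set of Plet1 (1423934_PM_at) had overlapping LE and control arrays at D7, with 5.85 and 6.26 against 6.21 and 6.83, and its hub arrays (5.87 and 5.84) lay below both control arrays.

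Lgr6, a receptor for R-spondins, which raise Wnt signalling, read 6.66 and 6.56 in the LE, 6.65 and 7.22 in the hub and 6.97 and 6.80 in control at D4. At D7 it read 5.25 and 5.35 in the LE, 5.73 and 6.01 in the hub and 6.23 and 5.97 in control. The LE arrays lay below both control arrays on each day, and the hub overlapped control on each day.

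Lrig1, a membrane protein that restrains signalling of the EGF receptor and keeps isthmus stem cells quiescent, read 7.68 and 7.66 in the LE, 8.00 and 7.81 in the hub and 8.21 and 8.11 in control at D7 on its brighter probe set (1434210_PM_s_at). The regions did not overlap on that day. At D4 the same probe set read 7.28 and 7.71, 7.99 and 7.32, and 7.66 and 7.49, with overlap throughout. Its other probe set (1449893_PM_a_at) ran from 7.20 to 8.13 at D4 and from 7.36 to 8.19 at D7.

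Gata6 read 6.36 and 5.94 in the LE, 6.43 and 6.03 in the hub and 6.99 and 6.34 in control at D4 on its brighter probe set (1425463_PM_at). At D7 it read 4.93 and 4.79 in the LE, 5.24 and 4.64 in the hub and 5.61 and 5.82 in control, so that both wound regions lay below control. The other probe set (1425464_PM_at) lay between the 23rd and the 50.5th percentile of its array at D4 and between the 28.3rd and the 42nd at D7, and little can be read from it.

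The test of each difference was made in limma, on all 28898 probe sets and 12 arrays together, with Benjamini-Hochberg adjustment over all probe sets and calls at an adjusted p under 0.05. In the LE against control at D7, 3 of the 11 probe sets were lower, where 5.32% of all probe sets were called lower. They were 1454254_PM_s_at of Plet1, 1.82-fold lower at a log2 difference of -0.86 (SE 0.15, adjusted p = 0.00485), 1423933_PM_a_at of Plet1, 2.06-fold lower at -1.04 (SE 0.23, adjusted p = 0.0145), and Lgr6, 1.74-fold lower at -0.80 (SE 0.18, adjusted p = 0.0188). No probe set of the 7 genes was called higher, against 8.32% of all.

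The call of 1454254_PM_s_at held with each of the 12 arrays left out in turn. That of 1423933_PM_a_at was lost without LE D7 replicate 1 (adjusted p = 0.0888), LE D7 replicate 2 (0.0647) or control D7 replicate 2 (0.0925) in limma. That of Lgr6 was lost without LE D7 replicate 1 (adjusted p = 0.116), LE D7 replicate 2 (0.0663) or control D7 replicate 1 (0.117).

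The remaining 8 probe sets were not called in the LE at D7. Gata6 came nearest on its brighter probe set, at -0.86 (SE 0.26, adjusted p = 0.0564), while its dim probe set gave -0.20. Lrig1 gave -0.49 (SE 0.21, adjusted p = 0.169) and -0.50 (SE 0.33), and the dimmest probe set of Plet1 gave -0.47 (SE 0.32). Krt79 gave -0.52 (SE 0.76), Defb6 -0.94 (SE 0.79) and Cst6 -0.35 (SE 0.88), whose 95% intervals all held 0. The 12 arrays share 1 estimate of the spread, so the D4 gaps of these genes entered their D7 errors. With the arrays of D7 only, the SE of Defb6 was 0.25 and limma called it lower (adjusted p = 0.0399), while Krt79 (SE 0.20, adjusted p = 0.137) and Cst6 (SE 0.33, adjusted p = 0.587) were not called.

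All 11 differences of the LE against control at D7 were below 0, as were 46.5% of those of all probe sets, and their median was -0.52 against 0.02 for all. Both LE arrays lay below both control arrays for 9 of the 11, which held for 23.7% of all probe sets. The exceptions were Cst6 and 1423934_PM_at of Plet1.

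Some marker lists also separated the LE from control at D7. The mean of 8 genes of the bulge and outer root sheath was 6.54 and 6.56 in the LE and 7.29 and 6.98 in control, with Cd34 below the array median throughout. The mean of 4 endothelial genes was 5.50 and 5.45 in the LE and 4.21 and 4.58 in control, where Cdh5 was called higher in the LE (2.03, adjusted p = 0.028). The mean of 5 fibroblast genes was 3.53 and 3.71 against 4.13 and 4.23, a separation that came from Dcn (-2.59, adjusted p = 0.0159), since Col1a1, Col1a2 and Col3a1 gave -0.10 to -0.19 and Lum 0.21. Col1a2, Col3a1 and Lum lay below the array median on all arrays. The means of the basal and of the melanocyte genes differed by less than 0.2 between any of these arrays. Single genes differed by more, such as Pmel at -0.65 (SE 0.55, not called). The part of these cells in the lower values of Plet1 and Lgr6 was not tested.

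In the LE against control at D4 limma called none of the 11 probe sets, where 13.1% of all probe sets were called, and none of the 11 had an unadjusted p under 0.05, as 24.8% of all did. Krt79 gave 0.43 with a 95% interval from -1.26 to 2.12, Defb6 -0.12 (-1.89 to 1.65) and Cst6 0.14 (-1.82 to 2.10), so that differences of several fold in either direction lay within the spread. For these genes the sign depended on the arrays set against each other. Replicate 1 of the LE minus replicate 1 of control was -0.41 for Krt79, -1.58 for Defb6 and -0.96 for Cst6, and the same for replicate 2 was 1.27, 1.34 and 1.23.

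Plet1 gave narrower values in the LE at D4, -0.01 (SE 0.15), 0.13 (SE 0.23) and 0.23 (SE 0.32) on its 3 probe sets. Gata6 gave -0.52 (SE 0.26, adjusted p = 0.266) and -0.35 (SE 0.25), and Lrig1 -0.08 (SE 0.21) and -0.29 (SE 0.33). Lgr6, at -0.28 (SE 0.18, adjusted p = 0.429), was the only probe set with both LE arrays below both control arrays, as in 20.8% of all.

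In the hub against control no probe set of the 7 genes was called by limma at D4, where 0.277% of all probe sets were called, and none of the 11 had an unadjusted p under 0.05, as 10.6% of all did. At D7 again none was called, against 0.516% of all, and 3 of the 11 had an unadjusted p under 0.05, as did 12.2% of all. These were both brighter probe sets of Plet1, at -0.75 (SE 0.15, adjusted p = 0.0675) and at -1.03 (SE 0.23, adjusted p = 0.0993), and the brighter probe set of Gata6, at -0.78 (SE 0.26, adjusted p = 0.251). With arrays of the same number as a replicate block in limma, the Plet1 differences passed at adjusted p = 0.042 and 0.0485. Lgr6 gave -0.22, Lrig1 -0.26 and -0.45, Krt79 0.08, Defb6 0.19 and Cst6 -0.13 in the hub at D7. The dimmest probe set of Plet1 gave -0.66. The dim probe set of Gata6 went the other way from the brighter one, at 0.17, with hub arrays (3.87 and 3.90) above those of control (3.73 and 3.71).

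The LE and the hub were not told apart by limma for any of the 7 genes, at D4 (4.33% of all probe sets called) or at D7 (2.26%). At D4 none of the 11 had an unadjusted p under 0.05 (15.9% of all), and at D7 Lgr6 alone did (15.3% of all), at -0.57 (SE 0.18, adjusted p = 0.158). Defb6 gave -1.13 at D7, and its 95% interval ran from -2.91 to 0.64. Krt79 gave -0.61 (adjusted p = 0.804), and both LE arrays lay below both hub arrays for 6 of the 11 probe sets, as for 21.8% of all.

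**Figure D4:**
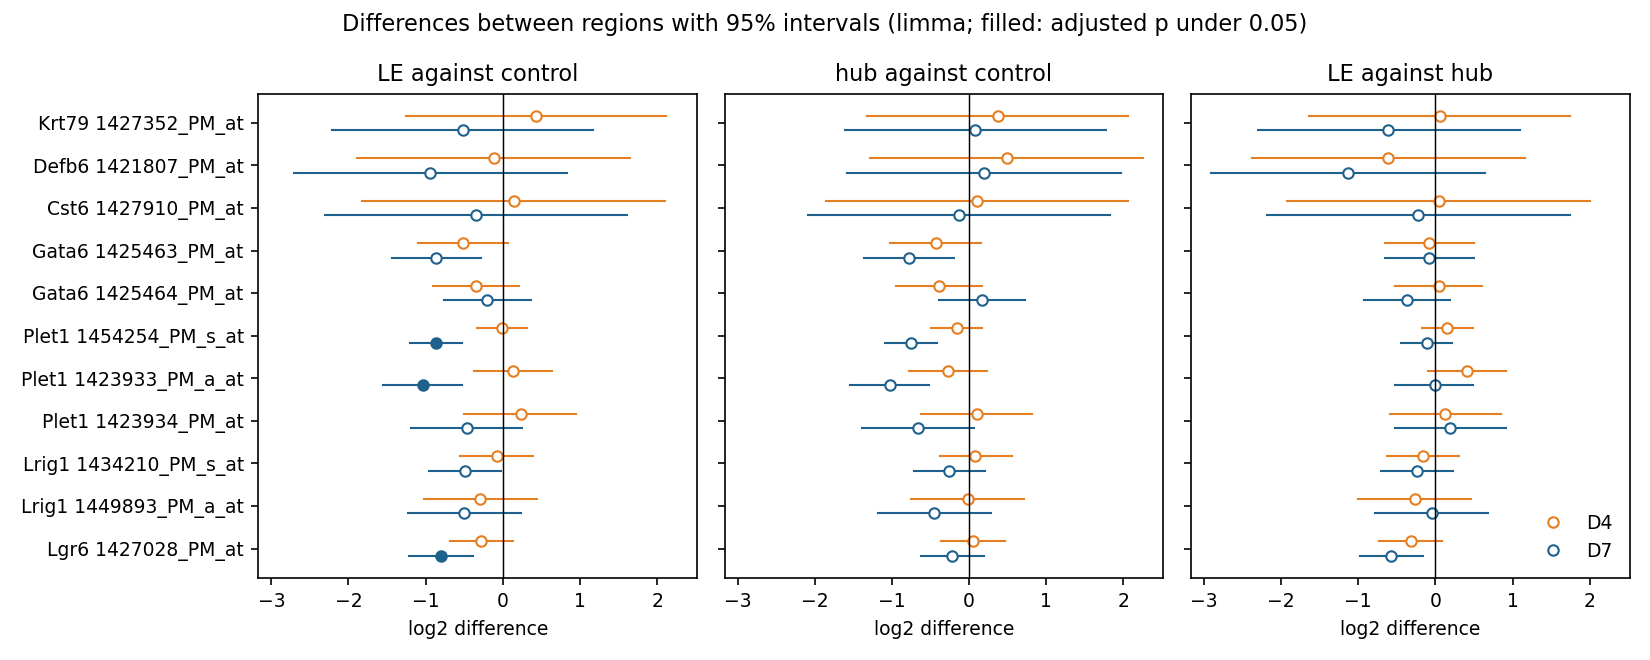
Log2 differences (horizontal axis) for the LE against control, the hub against control and the LE against the hub, at D4 and D7, with 95% intervals from limma. Filled points passed an adjusted p under 0.05, which 3 points did, all in the LE against control at D7. The intervals of Krt79, Defb6 and Cst6 are the widest.

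The change of a difference between D4 and D7 was also tested. For the LE against control limma called none of the 11, against 0.0138% of all probe sets, and 2 had an unadjusted p under 0.05, as did 7.5% of all. Both were of Plet1, with changes of -0.85 (SE 0.21, adjusted p = 0.324) and then of -1.18 (SE 0.32, adjusted p = 0.37). Lgr6 gave -0.52 (SE 0.26, adjusted p = 0.711). That Plet1 and Lgr6 were called at D7 and not at D4 is thus not shown to be a difference between the days. For the hub against control none was called either (0% of all), with 2 probe sets of Plet1 at an unadjusted p under 0.05 where 4.43% of all had one, and for the LE against the hub none was called (0.0104% of all) or had an unadjusted p under 0.05 (4.95% of all).

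Genes that act with the 7, or serve as markers of the neighbouring compartments, were counted in the same fit. In the LE against control 7.51% of all probe sets were called higher and 5.57% lower at D4, and 8.32% and 5.32% at D7, which is the background of the counts in these lists. Of 9 other genes of the upper follicle, 2 were called lower in the LE than in control on both days, and none was called higher. Aldh3a1, an aldehyde dehydrogenase, fell by 1.60 (SE 0.21, adjusted p = 0.00111) and on D7 by 1.65, and Sostdc1, a secreted inhibitor of BMP and Wnt signals, fell by 1.41 (SE 0.19) and by 0.74. Nebl went the other way without being called, by 0.96 (SE 0.32) and on D7 by 1.04 (SE 0.32). Its LE arrays lay above both control arrays on each day. They read 6.37 and 6.35 against 5.88 and 4.92 at D4, and 6.57 and 6.96 against 5.98 and 5.45 at D7. Ly6d and Cd44 were also above 0 on both days, by 0.22 or less. The medians of this list, -0.01 and -0.08, lay close to those of all probe sets, 0.03 and 0.02.

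Of 8 genes of the R-spondin and LGR axis, Lgr4, a receptor of the same family as Lgr6, was lower in the LE by limma, with a D4 difference of -1.76 (SE 0.29, adjusted p = 0.00339) and a D7 difference of -1.08 (adjusted p = 0.0339). Its D4 LE arrays read 5.58 and 6.76. Znrf3, a ubiquitin ligase that removes Wnt receptors, was lower at D4 only by this test (-0.73, adjusted p = 0.0141), and its change between days was not called (adjusted p = 0.851). Lgr5 gave 1.03 and -0.88 (SE 0.44) and was not called.

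Of 6 genes, which were of the LRIG family and the ErbB receptors with Met added, Lrig3, a paralogue of Lrig1, was lower in the LE. Its D4 and D7 differences from control in limma were -1.31 (SE 0.13, adjusted p = 0.000239) and -0.98 (SE 0.13, adjusted p = 0.00136). Lrig2 gave -0.24 and -0.13 (SE 0.16) and was not called. Met, the receptor for hepatocyte growth factor, rose by 1.03 and 0.79, and Egfr was lower at D7 (-0.56, adjusted p = 0.0179).

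Listed with Cst6 were 9 genes, other cystatins and the proteases and transglutaminases of its pathway. In the LE against control 3 of them were called higher and 1 lower at D4, and 2 and 1 at D7. Csta1, an intracellular cystatin, rose by 2.88 (SE 0.20, adjusted p = 3.83e-05) and 2.41, and Tgm1, the transglutaminase that cross-links the cornified envelope, by 2.13 and 2.45. The protease Ctsl, a target of Cst6, rose by 0.58 at D4, and Cst3, cystatin C, fell by 0.41 and 0.40. Csta1 was also the only gene of any list called in the hub against control, at 1.48 (adjusted p = 0.0183) at D7.

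Of 3 other beta-defensins none was called in any comparison of regions. At D4 Defb1 read 9.24 and 9.26 in the LE, 9.01 and 8.11 in the hub and 9.41 and 8.33 in control. Like Defb6 it was thus higher on replicate 1 in the hub and control and not in the LE, with smaller gaps. In the D4 LE Defb3 gave 0.80 (SE 0.27, adjusted p = 0.0844), and Defb4 lay at 3.08 to 4.59 on the 12 arrays. Of 6 type II keratins beside Krt79, only Krt80 was called in the LE against control, where it fell by 1.70 (SE 0.33, adjusted p = 0.00776) and by 1.82 (adjusted p = 0.00589). Of 4 genes listed with Gata6, Myc fell on both days, by 1.16 (adjusted p = 9.06e-05) and by 0.71, and Gata3, an epidermal GATA factor, fell by 0.71 at D4 (adjusted p = 0.0391).

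Marker genes of the neighbouring compartments, read in the same sorted cells, also changed in the LE. The sort was meant to leave out the bulge, so these values do not describe bulge cells as such. Of 8 genes of the bulge and outer root sheath, Krt15 fell by 2.48 (SE 0.39, adjusted p = 0.00273) and on D7 fell by 1.88. Postn, a matrix protein, fell by 1.32 and fell by 1.18 on these days, and Sox9 fell by 0.61 at D4. Lgr5, Cd34 and Tcf7l1 went the other way at D4 (1.03, 0.57 and 0.52) and were not called. Nfatc1 (-0.75) and Lhx2 (-0.11) were not called at D4 either. The median of this list was -0.36 at D4 and -0.38 at D7. Of 9 sebaceous gland genes, Plin2, a lipid droplet protein, rose by 1.59 (adjusted p = 0.000843) and Pparg by 1.20 (adjusted p = 0.0295) at D4, and none was called at D7.

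Against the hub, 7 genes of the 15 lists, cell types included, were called lower in the LE at D4 and 4 at D7. Of all probe sets, 1.97% and 1.15% were. Called higher were 4 genes at D4 and 2 at D7, against 2.36% and 1.11% of all. On both days 4 genes were lower and 1 higher, for which the share over all probe sets was not worked out. Aldh3a1 gave log2 differences of -1.29 (adjusted p = 0.00951) and -1.08 (adjusted p = 0.0355), and Lrig3 gave -0.99 (adjusted p = 0.0031) and -0.64 (adjusted p = 0.0373). Postn gave -1.12 and -0.76, and Myc -0.71 and -0.48. Tgm1 was higher by 1.40 on each day.

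**Figure D5:**
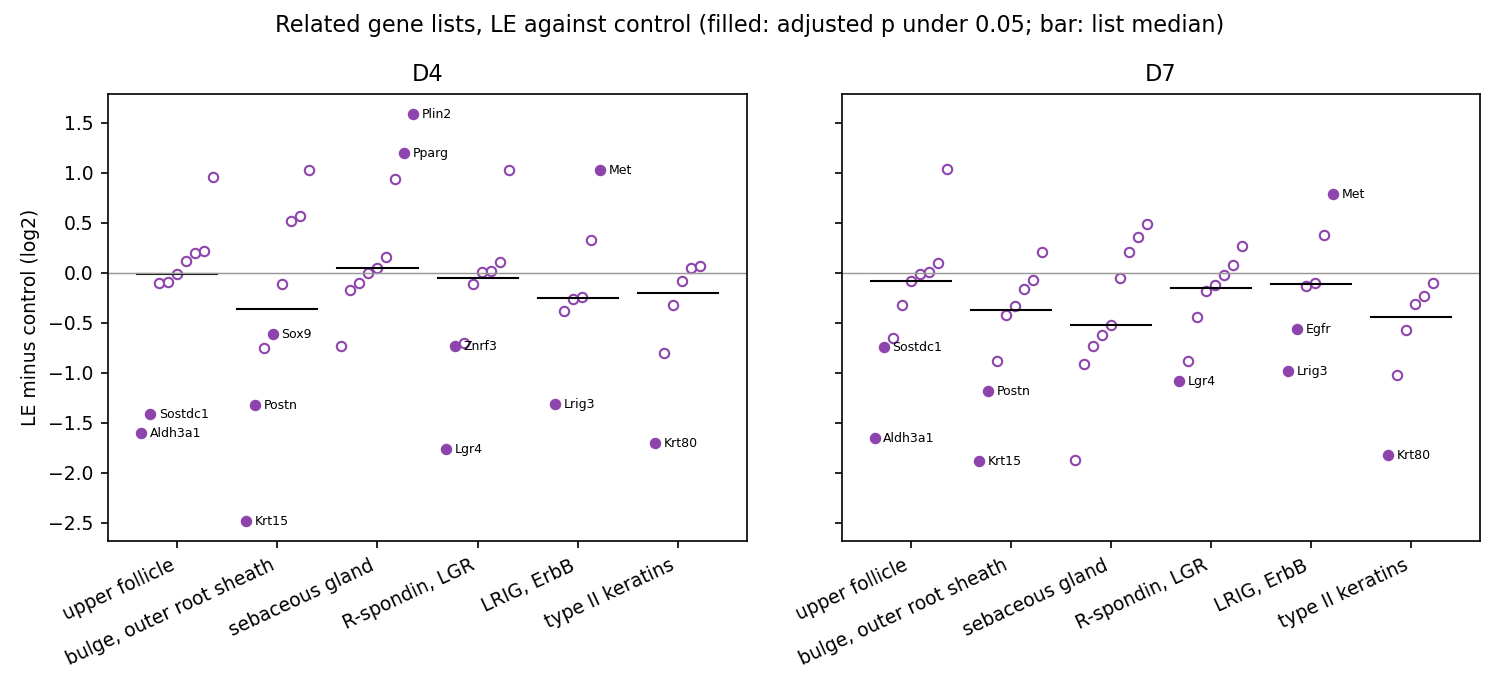
LE minus control (vertical axis, log2) for 6 lists of related genes at D4 (left) and D7 (right), 1 point a gene, filled and named where the adjusted p was under 0.05, with a bar at the list median. Called genes lie on the lower side in the upper follicle, bulge, LGR and keratin lists, such as Aldh3a1 at -1.60 and Lgr4 at -1.76 at D4, and Plin2, Pparg and Met lie above 0.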

How the data were processed

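The deposited values of the 12 arrays (Mouse Genome 430 PM strip) are log2 intensities that the authors had made by RMA from amplified cDNA of the sorted cells. For RMA no version is given in the sources used here. Of 45141 probe sets, 28898 paired with 1 gene were tested, and 104 controls, 551 paired with several genes and 15588 paired with none were left out. No filter was applied. The platform annotation gives no genomic positions of the probes, so whether the probe sets of a gene read different transcripts was not analysed here.

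A model with 6 groups was fitted in limma 3.58.1 (R 4.3.3) with the default empirical Bayes step and 6 residual degrees of freedom. The 6 comparisons of regions within a day and their changes between days were tested with Benjamini-Hochberg adjustment. Each related gene was read by its brightest probe set. These genes are named mainly where they were called, or as close relatives of one of the 7 genes. The 7 genes and all lists were chosen with earlier results of these data known. The procedure was tested on simulated data. Alternatives covered the scaling, the summary of probe sets, dim probe sets, the prior, array weights, the arrays in the fit, a fold rule, a replicate block and leaving out arrays. The microarray of the α5-integrin sort was left out.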

Additional observations from a re-analysis of the deposited data

How the results depend on the processing

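Each array was left out in turn, and 11 other planned settings were tried. The number of the 11 probe sets called in the LE against control at D4, 0 as reported, ran from 0 to 1 with an array left out. The 1 was the dim probe set of Gata6, without control D4 replicate 2 (-0.78, adjusted p = 0.0438). In the LE against control at D7 the count of 3 ran from 1 (without either LE D7 array) to 4, and was 6 with the arrays of the day only, 5 with those of the compared groups only and 0 by the fold rule of the methods, which asks for over 2-fold in each replicate. Gata6 (1425463_PM_at) passed there in 9 settings, with adjusted p from 0.0122 to 0.0487. In the hub against control at D7 the count of 0 ran from 0 to 2 (2 without either LE D4 array), and was 1 with a trended and robust prior, 2 with the arrays of the day only and 1 with the compared groups only. With the replicate block it was 2. For the LE against the hub at D7 it was 1 with the compared groups only, Defb6 at -1.13 (adjusted p = 0.0171). The shares of all probe sets called under these settings were not worked out, so these counts have no background to be read against.

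Chosen after seeing the data, all D4 arrays of 1 number were left out together, with the lone arrays assumed to vary like the D7 groups. Without those numbered 1, limma called 1 probe set in the LE against control at D4, Krt79 at 1.27 (adjusted p = 0.0359). Without those numbered 2 it called 2, Defb6 at -1.58 (adjusted p = 0.0329) and Gata6 at -0.68 (adjusted p = 0.0361), and 1 in the change of the LE between days, Plet1 at -1.53 (adjusted p = 0.0496). The causes were not tested, and the shares of all probe sets called in these fits were not worked out. No called difference changed sign in any setting. Of 2163 values of single probe sets under these settings, 2001 kept their direction and side of the threshold, 28 passed it only there, 6 no longer passed it, and 128, none of them called, changed sign.

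The labels do not say that a replicate number marks shared mice. Deviations of same-numbered arrays correlated with r from 0.174 to 0.261 at D4 and from -0.014 to 0.066 at D7. Same-numbered arrays thus deviated together at D4, where replicate 1 was above replicate 2 in every region for Krt79 and Cst6, and little at D7. With 2 numbers a comparison this does not settle whether the numbers pair the arrays, and the reported fit has no block. The wide intervals of Krt79, Defb6 and Cst6 at D7 rest on a spread shared with D4, and narrowed with the arrays of the day only, where Defb6 passed in the LE against control (SE 0.25, adjusted p = 0.0399).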
